A study of Mus musculus with 4 samples.

Results

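Fibroblasts of the mouse aorta that carried transcripts of Pi16 or Dpp4 were described across 4 single-cell RNA libraries. A cell barcode was a member when it had at least 1000 UMIs (unique molecular identifiers, each counting 1 captured transcript) and at most 10% of them from mitochondrial genes. It also had at least 4 UMIs of the fibroblast genes Pdgfra, Serpinf1 and Dpt together and at least 1 UMI of Pi16 or Dpp4. Barcodes were left out at 3% or more of UMIs from the smooth muscle genes Acta2, Tagln, Myh11 and Myl9, above 4 UMIs of the cartilage genes Col2a1, Acan, Cytl1 and Ibsp, above 2 UMIs of the C1q genes of macrophages, or above 1 UMI of the endothelial genes Pecam1 and Cdh5. The rule gave 1152 members of 37865 barcodes that passed the UMI and mitochondrial limits. Another 1309 barcodes met every condition except that they had no UMI of Pi16 or Dpp4, and these are called the other fibroblasts.

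The study set mice labelled LysM-DKO against WT mice, fed normal diet, or western diet where both genotypes also lacked ApoE. Each of the 4 groups was a single library of whole aorta: WT with normal diet, LysM-DKO with normal diet, WT/ApoE-/- with western diet and LysM-DKO/ApoE-/- with western diet. All values below follow that order. The ApoE deletion was shared by both western groups and absent from both normal-diet groups, so diet and the Apoe genotype cannot be told apart. The labels do not spell out which genes LysM-DKO lacks, although the series' title names the epsins. LysM is a promoter of myeloid cells, and a deletion it drives is not checked by levels in fibroblasts. Neither ages nor the number of animals behind a library are given, and single libraries allow no test between groups. The aortas were digested with collagenases and liberase, and tissue position was lost in that step, so the adventitial place of these cells was not measured here.

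Pi16 encodes a secreted protein, peptidase inhibitor 16, and Dpp4 encodes a surface peptidase, CD26. Together with Cd34, Ly6a, Igfbp6, Sema3c and Cd55, they mark fibroblasts of outer connective tissue sheaths such as the adventitia, a population described in many mouse organs as a progenitor-like fibroblast state. Adventitial fibroblasts lay down collagens and elastic fibre proteins, secrete complement components and chemokines, and produce hyaluronan.

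The members numbered 329, 390, 195 and 238, out of 7758, 8230, 13744 and 8133 barcodes that passed the limits. They made up 49.5% (95% exact binomial interval 45.6 to 53.3) of gated fibroblasts in WT on normal diet and 49.4% (45.9 to 53.0) in LysM-DKO on normal diet. In WT/ApoE-/- on western diet the share was 38.9% (34.6 to 43.3), and in LysM-DKO/ApoE-/- on western diet it was 47.0% (42.6 to 51.5). The intervals cover counting error only. The share in WT/ApoE-/- on western diet was the lowest of the 4, and its interval lay below those of both normal-diet libraries but overlapped that of the other western library. When each barcode was thinned to 1000 UMIs before the Pi16 and Dpp4 condition was applied, the shares were 26.2, 26.7, 21.2 and 23.5%, with overlapping intervals. Members carried a median of 4310, 4516.5, 3717 and 3559 UMIs and the other fibroblasts 3692.5, 3737, 3764.5 and 3636, so members were the deeper barcodes in the normal-diet libraries. These shares follow from the rule and are a description.

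**Figure D1:**
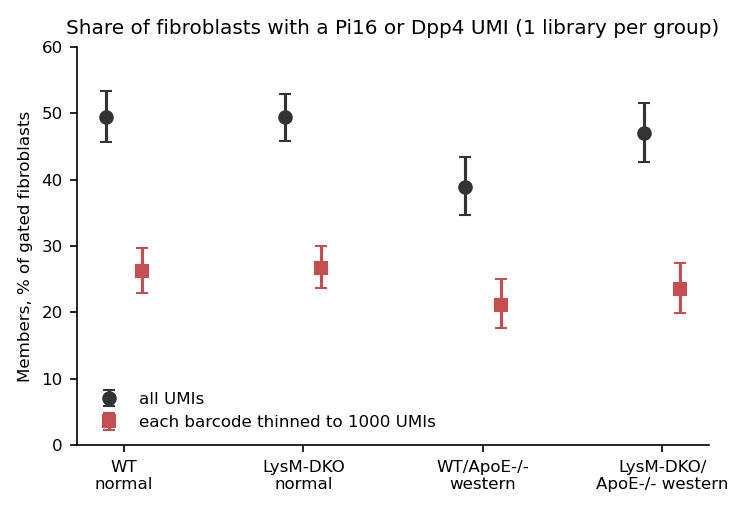
Members as a percentage of gated fibroblasts (y axis) in each of the 4 libraries (x axis), from all UMIs (dark circles) and after thinning each barcode to 1000 UMIs (red squares). Bars are 95% exact binomial intervals that cover counting error only. With all UMIs the points sit at 49.5, 49.4, 38.9 and 47.0%, and after thinning at 26.2, 26.7, 21.2 and 23.5%.

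Most members qualified through Pi16 alone. Barcodes with Pi16 but no Dpp4 UMI were 92.4, 80.8, 93.3 and 93.3% of members, those with both genes 6.69, 15.6, 5.64 and 5.04%, and those with Dpp4 only 0.912, 3.59, 1.03 and 1.68%. Summed over members, Pi16 stood at 799, 901, 685 and 682 CPM (the members' UMIs of a gene scaled to their total) and Dpp4 at 41.8, 84.6, 35.4 and 39.6 CPM. Pi16 lies at chr17:29317680-29330593 on the plus strand and Dpp4 at chr2:62330073-62412231 on the minus strand (GRCm38). Free RNA could place a UMI in a barcode, so the same genes were read in smooth muscle-gated and lymphocyte-gated barcodes. These were taken only where Pdgfra, Serpinf1 and Dpt had no UMI, so their shares can understate free fibroblast RNA. In smooth muscle-gated barcodes a Pi16 UMI occurred in 0.881, 1.96, 0.884 and 0.477% at a median of 8325, 8163, 3739.5 and 7081 UMIs. A Dpp4 UMI occurred in 7.60, 19.2, 6.67 and 6.72% of members, in 0.330, 0.171, 0.442 and 0.0551% of smooth muscle-gated barcodes, and in 5.85, 6.05, 6.74 and 2.33% of lymphocyte-gated barcodes, which express Dpp4 themselves. The Pi16 part of the label thus rests on nearly every member and the Dpp4 part on few. At the threshold, 121, 148, 94 and 101 members had exactly 1 UMI of Pi16 and Dpp4 together, and 26, 24, 19 and 17 had exactly 4 UMIs of Pdgfra, Serpinf1 and Dpt, against 14, 17, 27 and 20 barcodes just outside with 3.

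The fibroblast part of the label was checked on markers that the rule did not use, since the rule itself sets the level of its own genes. The 7 such fibroblast markers (Col1a1, Col1a2, Dcn, Lum, Gsn, Mfap5 and Clec3b) summed to 34122, 28990, 31858 and 30414 CPM in members and to 3481, 4055, 9815 and 4060 CPM in all barcodes outside the members. In the other fibroblasts they summed to 33327, 29452, 28713 and 26419 CPM. Their sum thus places members among fibroblasts and does not bear on the Pi16 and Dpp4 part of the label. The 5 smooth muscle markers outside the rule summed to 444, 442, 380 and 314 CPM in members, against 2175, 1774, 1872 and 2952 CPM outside. The 9 macrophage markers outside the rule stood at 27.9, 37.1, 40.2 and 16.7 CPM in members, against 205, 401, 1056 and 138 CPM outside. The 8 endothelial ones stood at 49.1, 76.7, 88.6 and 101 CPM, against 162, 243, 82.1 and 92.9 CPM, so they were lower in members in the normal-diet libraries but not in the western ones. These cell types were also capped by the rule, so their low markers are partly set by it. Cartilage genes were capped too, but the 5 cartilage markers outside the rule stood at 168, 223, 262 and 223 CPM in members. Outside the members they stood at 55.4, 69.6, 283 and 149 CPM, so only WT/ApoE-/- on western diet had them lower in members. The other fibroblasts had 212, 291, 276 and 341 CPM. Erythroid markers stood at 1881, 3150, 15.4 and 2.08 CPM and B-cell markers at 200, 753, 91.0 and 5.20 CPM, which separates the normal-diet from the western libraries within the members. Mesothelial markers reached 89.6 CPM in LysM-DKO on normal diet and at most 4.64 CPM in the other libraries, where 8 or 9 of the 10 markers were at 0. Adipocyte markers summed to 25.9, 116, 18.9 and 15.6 CPM, with 3, 2, 5 and 5 of 6 at 0, and Car3 and Adipoq had 159 and 24 UMIs in LysM-DKO on normal diet. Apoe followed the labels, at 2523, 2917, 4.73 and 4.16 CPM in members. The sex-linked Xist RNA stood at 1006, 1111, 4.73 and 2.08 CPM and the Y-linked Ddx3y at 0, 0, 130 and 139 CPM, so the cells' sex also differed with the diet groups. The part of erythroid RNA, B-cell RNA and sex in the group differences below was not tested. Between 38 and 129 barcode sequences occurred in any pair of libraries, and 0 of them were members in both.

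To ask which genes go with Pi16 and Dpp4 inside the fibroblast gate, UMIs were summed over members and over other fibroblasts of each library, and the 8 sums were compared with edgeR's quasi-likelihood test, with the library as a block. Of 9534 genes tested, 155 were higher and 81 lower in members at a Benjamini-Hochberg adjusted p under 0.05, which is 2.48% of genes (1.63% higher, 0.85% lower). The 18 genes of the rule took no part in these calls, although barcodes were split by Pi16 and Dpp4, so genes that accompany them in the same cells move with the split. Without the block the test called 5 genes, all higher, and leaving out 1 library gave 178, 155, 317 and 70 calls, for the libraries left out in the order above.

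The genes that set members apart most were surface and matrix genes of the progenitor-like state. Adgrd1, an adhesion G protein-coupled receptor, stood at 51.1, 102, 59.1 and 73.9 CPM in members and at 12.4, 16.2, 5.71 and 10.9 CPM in other fibroblasts. This was a log2 difference of 2.65 (edgeR adjusted p = 6.61e-05), in the same direction in 4 of 4 libraries. Opcml, a cell adhesion molecule anchored in the membrane, was higher by 2.46 (edgeR adjusted p = 8.35e-05) and Emilin2, an elastic fibre glycoprotein, by 2.30 (edgeR adjusted p = 0.000153). Sema3c, a secreted guidance cue, stood at 235, 309, 161 and 142 CPM in members and 41.7, 47.5, 49.7 and 46.2 CPM in other fibroblasts, with no overlap between the subsets over the libraries. Igfbp6, a binding protein of insulin-like growth factor 2, stood at 500, 842, 1024 and 1207 CPM against 285, 307, 134 and 380 CPM. Its log2 difference of 1.69 (edgeR adjusted p = 0.00299) was smallest in WT on normal diet, at 0.81, and largest in WT/ApoE-/- on western diet, at 2.94. Ly6c1, a surface antigen also found on endothelial cells, stood at 183, 422, 281 and 158 CPM against 40.3, 111, 132 and 61.4 CPM.

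Of a list of 32 genes known from Pi16- or Dpp4-positive fibroblasts, 28 were tested, 25 were higher in members and 0 were lower by edgeR (26 and 0 at an unadjusted p under 0.05, 24 and 0 by DESeq2), with a median log2 difference of 1.41 against -0.00 over all genes. Among them, Ly6a, which encodes Sca-1, was higher by 1.26 (edgeR adjusted p = 8.35e-05), Cd34 by 1.10 (edgeR adjusted p = 0.000206), and Mfap5, a microfibril protein, by 1.28 (edgeR adjusted p = 6.61e-05). Cd55, which shields cells from complement, was higher by 1.98 (edgeR adjusted p = 0.000539), Procr, the endothelial protein C receptor, by 1.98 (edgeR adjusted p = 0.00102), and Ackr3, a scavenging receptor for Cxcl12, by 1.72 (edgeR adjusted p = 6.61e-05). A Procr UMI occurred in only 10.3, 21.0, 6.15 and 7.98% of members. The list was drawn up from such cells, so its direction is not independent of the rule.

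Hyaluronan synthases also set members apart. Has1 was higher by 1.53 (edgeR adjusted p = 6.9e-05). Has2 stood at 117, 127, 11.8 and 38.5 CPM in members and at 32.2, 24.9, 2.85 and 5.89 CPM in other fibroblasts, a log2 difference of 2.17 (edgeR adjusted p = 6.9e-05). In WT, members on western diet lay below other fibroblasts on normal diet, at 11.8 against 32.2 CPM, while in LysM-DKO they lay above them.

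Matrix genes are given family by family, beside 1.63% higher and 0.85% lower over all genes, and differences between families were not tested. Of 22 elastic fibre genes tested, 8 were higher in members and 1 was lower, with a median log2 difference of 0.27. The higher ones included Fbn1, the main microfibril protein, at 515, 852, 701 and 563 CPM against 261, 338, 421 and 289 CPM, and Tnxb, a tenascin that spaces collagen fibrils, with a log2 difference of 1.20 (edgeR adjusted p = 0.0115). The lower one was Ltbp2, which binds microfibrils (-0.90, edgeR adjusted p = 0.0172). Of 22 collagens, 1 was higher, Col14a1 (0.77, edgeR adjusted p = 0.00179), and Col4a2 and Col27a1 were lower. The fibrillar collagen genes Col1a1 and Col3a1 gave log2 differences of 0.01 and 0.23 that did not pass the test. Of 19 proteoglycan genes, Ogn, Aspn and Gpc3 were higher and Lum was lower. Of 33 proteases and inhibitors, 7 were higher, among them the aggrecanase gene Adamts5 (0.93, edgeR adjusted p = 0.0016), and Timp1 and Serpine2 were lower.

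Secreted signals were mixed. Among 28 chemokine and cytokine genes, the monocyte attractants Ccl2 (0.56, edgeR adjusted p = 0.00371) and Ccl7 (0.99, edgeR adjusted p = 0.000666), the alarmin Il33 (1.20, edgeR adjusted p = 0.00345) and Ackr3 were higher, and Cx3cl1 was lower. Among 18 complement and acute-phase genes, C3, C7, Serping1 and Cd55 were higher and Cp was lower. Among 22 Wnt pathway genes, 3 were higher and 3 lower. The secreted Wnt modulator Sfrp4 stood at 504, 698, 1417 and 1248 CPM in members and 245, 301, 376 and 299 CPM in other fibroblasts (log2 difference 1.55, edgeR adjusted p = 0.000237), and the lower ones were Frzb, Wif1 and Rspo3. Among 13 IGF pathway genes, Igfbp5 and Igfbp6 were higher and Igfbp3 and Igfbp7 lower. Of 29 TGF-beta and BMP genes, 6 were higher, among them the receptor genes Tgfbr2 (0.70, edgeR adjusted p = 0.00203) and Tgfbr3 and the BMP antagonist Chrdl1, and Inhba, which encodes an activin subunit, was lower.

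Transcription factor, surface, digestion, interferon and endocytosis lists are given by count, beside 1.63% higher and 0.85% lower over all genes. Differences between these lists were not tested. Surface genes were called in both directions. Of 28 transcription factors, 4 were higher by edgeR, namely Prrx1, Klf4, Creb5 and Ebf2, and 0 were lower (7 and 1 at an unadjusted p under 0.05, 4 and 0 by DESeq2). Ebf2, known from adipocyte precursors, gave 1.07 (edgeR adjusted p = 0.0316), whereas Fabp4, a fatty acid carrier of adipocytes and endothelium, was lower at -0.91 (edgeR adjusted p = 0.0354). The log2 ratio of Fabp4 was -0.05 in the WT normal diet library and -1.13 in the LysM-DKO normal diet library, where 1 barcode held 364 of the 667 Fabp4 UMIs of the members. Of 26 adhesion and surface genes, 8 were higher and 3 were lower (Vcam1, Pdgfrb and Ptprd), and the higher ones included Thy1 and the receptor tyrosine kinase gene Axl besides the progenitor-list genes. Of 28 genes that tissue digestion is known to induce, 1 was higher, Klf4, and 0 were lower by edgeR (4 and 1 at an unadjusted p under 0.05, 1 and 0 by DESeq2). Of 20 interferon genes, Ifi27l2a was higher (1.27, edgeR adjusted p = 0.00299). Of 19 endocytosis genes, which include the epsins, 0 were called in either direction by edgeR and by DESeq2, and 4 were higher and 3 lower at an unadjusted p under 0.05.

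Among the named genes lower in members, Spp1 had the largest difference. Spp1, which encodes osteopontin, stood at 9.28, 75.7, 369 and 39.6 CPM in members and at 19.8, 205, 14879 and 2249 CPM in other fibroblasts. The log2 difference was -4.03 (edgeR adjusted p = 0.0108), and the gap was far wider in the western libraries than in the normal-diet ones. A Spp1 UMI occurred in 2.74, 3.85, 35.9 and 6.72% of members and in 3.27, 3.51, 57.2 and 13.4% of other fibroblasts, so on normal diet the shares of cells hardly separated the subsets. Thbs1, a matricellular protein that activates latent TGF-beta, stood at 96.2, 209, 203 and 160 CPM against 231, 480, 894 and 735 CPM (log2 difference -1.70, edgeR adjusted p = 0.000309). Vcam1, the adhesion molecule for leukocyte integrins, stood at 341, 447, 502 and 207 CPM against 531, 679, 1920 and 605 CPM (log2 difference -1.18, edgeR adjusted p = 0.00823). Tnc, another matricellular protein, was lower by -2.23 on the log2 scale (edgeR adjusted p = 0.00723), though DESeq2 gave it an adjusted p of 0.0799. Igfbp3 was lower by -2.04 (edgeR adjusted p = 8.39e-05), a difference carried by the normal-diet libraries, at 96.8 and 78.2 CPM against 392 and 396 CPM. In the western libraries its ratios were -0.73 and -0.97, from 4 and 10 UMIs in members against 15 and 25. Of 22 myofibroblast genes, 5 were lower (Tnc, Thbs1, Timp1, Actn1 and Spp1) and 0 higher by edgeR (11 and 0 at an unadjusted p under 0.05, 3 and 0 by DESeq2). Apoe was also lower, by -1.05 (edgeR adjusted p = 0.000122), a difference carried by the normal-diet libraries, where it stood at 2523 and 2917 CPM in members and 4731 and 6470 CPM in other fibroblasts. When barcodes with any Spp1 UMI were left out of both subsets, Lgals3, a galectin of phagocytes and activated stroma, went from -1.46 to 0.02 and Sncg from -1.82 to -0.67 (edgeR adjusted p = 0.187), while the other 21 named genes that remained testable stayed called. Without LysM-DKO/ApoE-/- on western diet, 9 of the 24 named genes missed the threshold, among them Igfbp6, Spp1, Tnc and Vcam1.

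**Figure D2:**
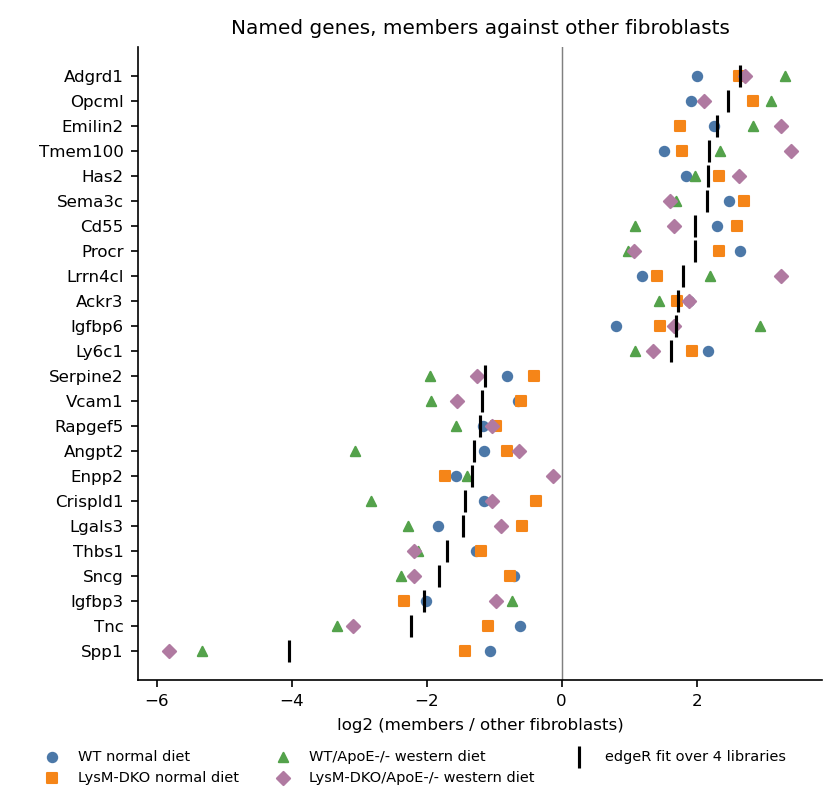
Log2 ratio of members over other fibroblasts (x axis) for the 24 named genes (y axis), with 1 symbol per library and a black bar for the edgeR estimate over the 4 libraries. The 12 higher genes lie right of 0 and the 12 lower genes left of 0 in all 4 libraries, which the naming rule required, and Spp1 spreads from -1.07 to -5.81.

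The number of Pi16 and Dpp4 UMIs gave a graded view of the same contrast. Fibroblasts with 0, with 1, and with 2 or more of these UMIs were summed separately. Igfbp6 stood at 285, 298 and 599 CPM over these 3 classes in WT on normal diet and at 307, 518 and 983 CPM in LysM-DKO on normal diet. On western diet it stood at 134, 485 and 1365 CPM in WT/ApoE-/- and at 380, 774 and 1506 CPM in LysM-DKO/ApoE-/-. The class with 2 or more was the highest in all 4 libraries. Mfap5, Ly6a and Cd34 had the same order in all 4 libraries. Over the 12 named higher genes, 42 of 48 pairs of gene and library were in ascending order, and 6 genes were so in all 4 libraries. For the 12 named lower genes, 29 of 48 pairs were in descending order and 2 genes were so in all 4 libraries, and the class with 1 UMI already lay below the class with 0 in 45 of 48. Thbs1 illustrates this, at 735, 79.2 and 216 CPM in LysM-DKO/ApoE-/- on western diet. These genes were chosen from the same barcodes, so the order is a description. When barcodes with exactly 1 UMI were tested against 0, 33 genes were called (17 higher, 16 lower), and 14 of the 24 named genes missed the threshold.

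**Figure D3:**
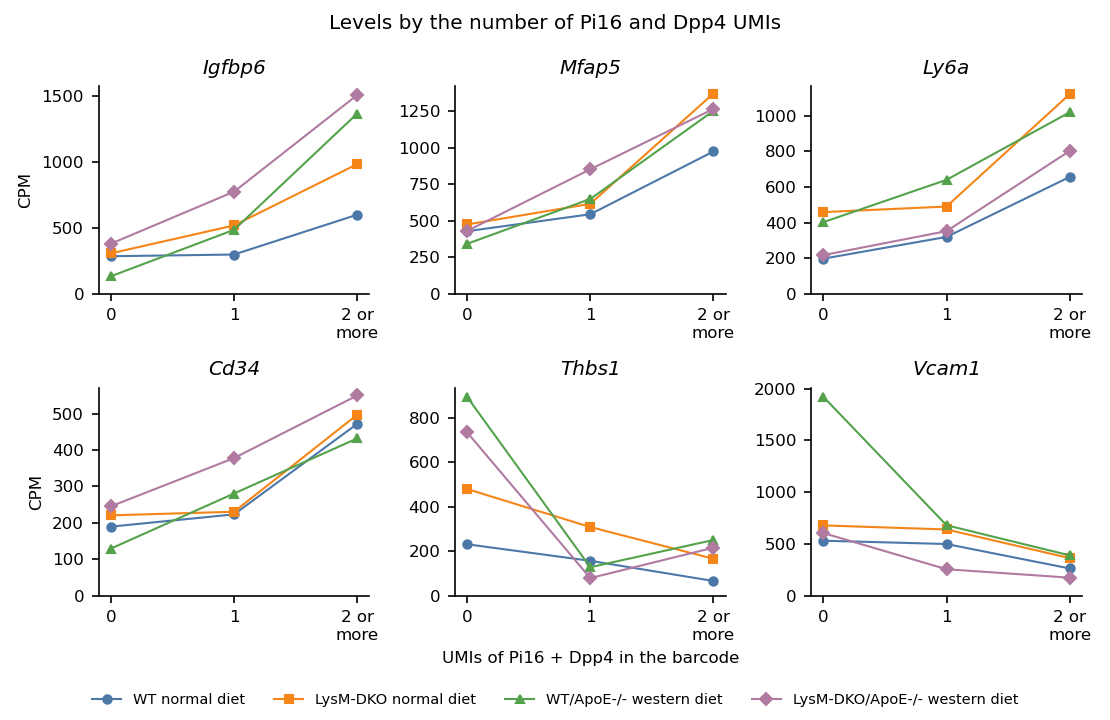
Level in CPM (y axis) of 6 genes in fibroblasts with 0, 1, and 2 or more UMIs of Pi16 and Dpp4 (x axis), with 1 line per library. Igfbp6, Mfap5, Ly6a and Cd34 ascend in all 4 libraries, from 285 to 599 CPM for Igfbp6 in WT on normal diet, and Vcam1 descends in all 4, from 1920 to 390 CPM in WT/ApoE-/- on western diet.

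The groups were then compared inside the members. A gene counted as past the fold when it differed at least 2 fold between a pair of libraries and reached 100 CPM in the higher one. Ratios are on the log2 scale with 0.5 UMI added to each library, and their 95% exact intervals cover counting error only, with no replicate check. The 4 contrasts share libraries, so their values are set side by side and not compared with each other. The median over all genes was -0.02, 0.03, 0.10 and 0.11 for LysM-DKO over WT on normal and western diet and for western over normal diet in WT and LysM-DKO, in that order, and ratios near these values say little.

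On normal diet, few genes separated LysM-DKO from WT members: 34 of 1740 genes, or 1.95%, were past the fold, 29 higher (1.67%) and 5 lower (0.287%) in LysM-DKO. Acute-phase genes led the higher ones. Of 14 complement and acute-phase genes at 100 CPM or more, 4 were past the fold higher (Saa3, Lbp, Serpina3n and Cfd) and 0 lower, with a median log2 ratio of 0.60. In LysM-DKO on normal diet, 4 deep barcodes held 556 of 560 Saa3, 329 of 338 Cfd and 267 of 479 Lbp UMIs. The same 4 held 151 of 159 UMIs of Car3 and 21 of 24 of Adipoq, both adipocyte markers, and 368 of 667 of Fabp4. Of 5 adipogenic genes at 100 CPM or more, 2 were past the fold higher, Fabp4 and Cfd. Without leukocyte-marked barcodes and the deepest 5% of each library, the median of the complement and acute-phase list was 0.42 and the ratios were 1.17 for Lbp and 1.10 for Serpina3n. Serpina3n, a secreted protease inhibitor, stood at 58.4, 159, 507 and 68.7 CPM over the 4 libraries, a log2 ratio of 1.44 (1.10 to 1.80). Lbp, which binds bacterial lipopolysaccharide, stood at 36.5, 237, 388 and 80.1 CPM, a ratio of 2.69 (2.30 to 3.13). In LysM-DKO on normal diet, 199 of its 479 UMIs came from a single barcode, and the ratio was 2.02 without the leading barcode of each library and 1.59 when each member weighed the same. Col3a1, the type III collagen gene, stood at 1446, 3109, 7698 and 2630 CPM, with a ratio of 1.10 (1.03 to 1.18) on normal diet. One barcode held 611 of its 2180 UMIs in WT, and without the leading barcodes the ratio was 1.45. Of 15 myofibroblast genes, 5 were past the fold higher and 1 lower (Thbs2), and the higher ones included Fn1, which encodes fibronectin, at 570, 1188, 1632 and 3182 CPM, and Postn, which encodes periostin, at 178, 403, 421 and 427 CPM. Of 8 interferon-list genes at 100 CPM or more, 0 were past the fold in either direction, with a median of 0.24. Outside the list, the interferon-inducible genes Ifi205 and Ifi204 gave ratios of 2.01 (1.52 to 2.55) and 1.40 (1.03 to 1.81), and Iigp1, also interferon-inducible, gave -1.02 (-1.23 to -0.80). Plac8 stood at 47.1, 266, 137 and 24.98 CPM in members, but at 74.1, 171, 28.4 and 2.93 CPM outside them, so its difference was not limited to fibroblasts.

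Among the 5 lower genes, Sfrp2, a secreted Wnt modulator, stood at 1584, 457, 579 and 417 CPM. Its log2 ratio on normal diet was -1.79 (-1.90 to -1.68), and WT on normal diet was the only library above 579 CPM. The other fibroblasts had 918, 339, 208 and 287 CPM, so both subsets were highest in that library. The noncoding RNA Gm26771 gave -2.03 (-2.45 to -1.65). Inmt, a methyltransferase of stromal cells, fell short of the fold at -0.99 (-1.16 to -0.81) and is not among the 5. It stood at 448, 226, 421 and 385 CPM, so LysM-DKO on normal diet was the low library for this gene. In the other fibroblasts its ratio had the opposite sign, at 0.32.

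On western diet the same genotype contrast had 67 of 1898 genes past the fold (3.53%), 36 higher (1.9%) and 31 lower (1.63%) in LysM-DKO/ApoE-/-. Complement and acute-phase genes stood on the lower side. Of 14 at 100 CPM or more, 6 were past the fold lower and 0 higher, with a median of -0.91. Serpina3n gave -2.87 (-3.28 to -2.51) and Lbp -2.27 (-2.65 to -1.91). C3, the central complement component, stood at 1107, 1393, 1700 and 707 CPM, a ratio of -1.27 (-1.40 to -1.13). Cfb, complement factor B, gave -1.44, from 403 to 148 CPM. Mmp3, which encodes the protease stromelysin 1, stood at 666, 413, 3416 and 850 CPM, a ratio of -2.01 (-2.12 to -1.89). One barcode held 716 of its 2891 UMIs in WT/ApoE-/- on western diet, and the leading barcode of LysM-DKO/ApoE-/- held 77 of 817. WT/ApoE-/- on western diet was the high library for all 5 of these genes.

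Chemokines went both ways between the western libraries, with 2 of 16 past the fold higher and 6 lower. Cxcl12, the ligand of Cxcr4 and Ackr3, stood at 522, 623, 1341 and 553 CPM, and its ratio was -1.28 (-1.43 to -1.13). Cxcl14 stood at 9.95, 66.3, 109 and 0 CPM. A count of 0 allows up to 3.12 CPM (3 UMIs) in the last library, and the 109 CPM of WT/ApoE-/- on western diet was 34.8-fold above that limit. This fold leaves out counting error in the higher library. The 95% exact interval of the log2 ratio between the western libraries had its end nearest 0 at -4.79. Cxcl13, a B-cell attractant, stood at 2.65, 36.6, 105 and 3.12 CPM, but 82 of its 89 UMIs in WT/ApoE-/- on western diet came from 1 barcode. The neutrophil attractants Cxcl1 and Cxcl2 were the higher ones. Cxcl1 stood at 1353, 2452, 356 and 812 CPM and Cxcl2 at 628, 1008, 81.5 and 287 CPM. For Cxcl2 the ratio of 1.81 (1.43 to 2.22) became 0.69 with equal weight for each member. A Cxcl2 UMI occurred in 10.3% of members in WT/ApoE-/- on western diet. In LysM-DKO/ApoE-/- on western diet it occurred in 9.24%, and 1 barcode held 98 of 276 UMIs. The other fibroblasts went the other way for Cxcl2, with a ratio of -0.98.

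Other genes higher in LysM-DKO/ApoE-/- members on western diet belonged to protein folding in the endoplasmic reticulum. Manf, a protein secreted under folding stress, stood at 381, 460, 351 and 843 CPM, a ratio of 1.26 (1.07 to 1.46). Herpud1, a component of protein degradation at the endoplasmic reticulum, stood at 259, 231, 213 and 547 CPM (1.36, 1.12 to 1.62), and Creld2, a folding factor, at 43.8, 59.4, 62.6 and 183 CPM (1.54, 1.10 to 2.02). These 3 genes were chosen by rank and not from a list. LysM-DKO/ApoE-/- on western diet was the highest library for each. In the other fibroblasts the same ratio was 1.51 for Manf, 1.59 for Herpud1 and 1.47 for Creld2, so the difference was not limited to members. In all barcodes outside the members, Herpud1 stood at 134, 158, 128 and 151 CPM and Manf at 154, 222, 192 and 243 CPM. The predicted gene Gm10076 stood at 217, 256, 206 and 897 CPM in members and at 180, 207, 151 and 619 CPM outside, so the last library was high for it in other barcodes too.

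The acute-phase gene Saa3, which encodes serum amyloid A3, needs its counts cell by cell. It stood at 0.663, 277, 321 and 41.6 CPM, which were 1, 560, 272 and 40 UMIs in 1, 7, 15 and 2 members. The 4 barcodes of LysM-DKO on normal diet described above also held 159 Lcn2 and 118 Hp UMIs, and each had between 14590 and 23536 UMIs in all, against a median of 4516.5 for members of that library. In WT/ApoE-/- on western diet, 7 barcodes with between 1314 and 13215 UMIs held 248 of the 272 Saa3 UMIs. In LysM-DKO/ApoE-/- on western diet a single barcode held 39 of 40. The log2 ratio of 8.12 on normal diet (6.22 to 14.0) therefore compares 1 UMI with a few barcodes, and it was 0.40 without leukocyte-marked barcodes and the deepest 5% of each library. The members with 3 or more mesothelial UMIs, 1, 5, 0 and 0 in number, held 0 of the 560 Saa3 UMIs in LysM-DKO on normal diet.

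For Saa3 and Serpina3n, both of which were highest in WT/ApoE-/- on western diet, the 250 bases before the annotated start are shown, because C/EBP, STAT and NF-kappa B factors are known to act in the acute-phase response. Capitals mark matches, on either strand, to the letters TTNNGNAA, a loose form of the C/EBP element. The sequences are from RefSeq on GRCm38.p6, printed 5′ to 3′ on each gene's own strand, at chr7:46715677-46715926 (minus strand) for Saa3 and chr12:104406458-104406707 (plus strand) for Serpina3n.
Saa3: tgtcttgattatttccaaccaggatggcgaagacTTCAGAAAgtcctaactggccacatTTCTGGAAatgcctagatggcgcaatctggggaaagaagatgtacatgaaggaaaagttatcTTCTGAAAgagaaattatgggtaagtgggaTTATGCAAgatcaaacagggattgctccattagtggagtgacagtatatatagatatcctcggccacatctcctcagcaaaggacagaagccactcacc
Serpina3n: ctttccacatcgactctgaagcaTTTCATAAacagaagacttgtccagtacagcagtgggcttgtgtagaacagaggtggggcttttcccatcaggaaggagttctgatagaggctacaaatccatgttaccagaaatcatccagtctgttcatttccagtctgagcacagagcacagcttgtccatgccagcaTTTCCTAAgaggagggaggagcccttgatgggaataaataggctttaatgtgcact
The Saa3 stretch held 4 matches and the Serpina3n stretch 2. At least 1 match occurred in 36.8% of the 32851 promoter entries of that length and in 16 of the 20 entries that the table holds for complement and acute-phase genes, which cover 18 of the 27 genes in the list. A STAT element, TTCNNNGAA, had 0 matches in both stretches and occurred in 7.02% of all entries and in 3 of these 20. The kappa B consensus had 0 in both and occurred in 3.90% of all entries and in 1 of these 20. A match is a run of letters and not a measured binding site.

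For western diet on the ApoE-null background against normal diet in WT members, 236 of 1948 genes were past the fold (12.1%), 91 higher (4.67%) and 145 lower (7.44%). Among matrix genes, the collagens were on the higher side. Of 16 collagen genes at 100 CPM or more, 8 were past the fold higher and 1 lower (Col6a6), with a median log2 ratio of 1.02 against 0.10 over all genes. Other matrix lists lay closer to all genes. Of 19 elastic fibre genes, 3 were past the fold higher and 0 lower, with a median of 0.22. Of 16 proteoglycan genes, 2 were higher and 1 lower, with a median of 0.21. Col3a1 gave 2.41 (2.34 to 2.48). Col1a1 stood at 1676, 2663, 5356 and 2419 CPM, a ratio of 1.68 (1.61 to 1.75), and Col1a2 at 2240, 2544, 5768 and 3738 CPM (1.36, 1.30 to 1.43). WT/ApoE-/- on western diet was the highest library for all 3 fibrillar collagens. In the other fibroblasts Col3a1 had 1017, 2188, 6302 and 3306 CPM, with the same library highest. Outside the members it stood at 592, 588, 2072 and 1113 CPM. Timp1, an inhibitor of matrix proteases, stood at 64.3, 138, 738 and 202 CPM (3.51, 3.21 to 3.84), and Mmp3 gave a ratio of 2.36 (2.25 to 2.46). That Mmp3 ratio includes the barcode with 716 of 2891 UMIs in WT/ApoE-/- on western diet. Of 17 myofibroblast genes, 7 were past the fold higher and 0 lower. Of 16 complement and acute-phase genes, 7 were past the fold higher and 1 was lower (Ptx3), with a median of 0.90.

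**Figure D4:**
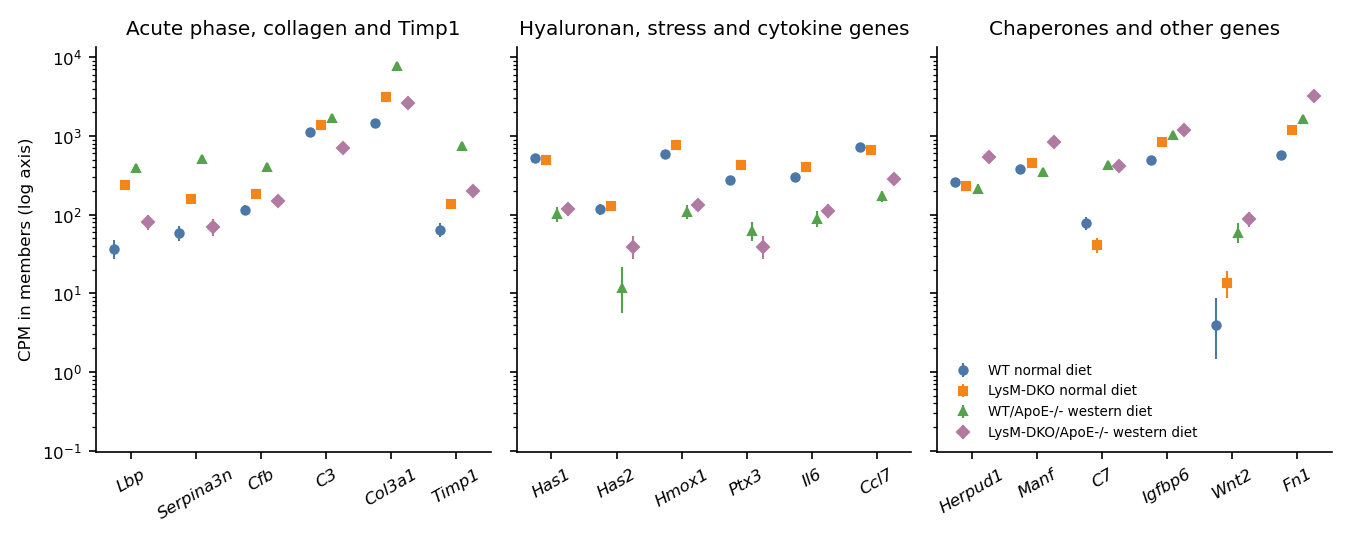
CPM of 18 genes in members (y axis, log scale) in each of the 4 libraries, with 95% exact Poisson intervals that cover counting error only. Lbp, Serpina3n, Col3a1 and Timp1 are highest in WT/ApoE-/- on western diet (388, 507, 7698 and 738 CPM), Has1, Has2 and Hmox1 are higher in both normal-diet libraries, and Manf and Herpud1 are highest in LysM-DKO/ApoE-/- on western diet.

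Genes lower on western diet in WT members included, after Apoe itself (-8.89), Hmox1, the hyaluronan synthase genes and several chemokine genes. Hmox1, the heme-degrading oxygenase, stood at 594, 767, 109 and 134 CPM, a ratio of -2.44 (-2.78 to -2.14), and erythroid marker RNA in members was also high in the normal-diet libraries, as given above. Has1 stood at 526, 496, 100 and 117 CPM (-2.38, -2.73 to -2.06) and Has2 gave -3.24 (-4.39 to -2.39). Cxcl2 gave -2.94 (-3.32 to -2.59), and the cytokine gene Il6 stood at 300, 402, 87.4 and 111 CPM. Ccl7 stood at 727, 672, 171 and 283 CPM. Both western libraries were below both normal-diet libraries for each of these genes. Chemokine and cytokine genes went both ways in this contrast: of 16, 7 were past the fold lower and 4 higher (Ccl19, Cxcl12, Cxcl13 and Cxcl14), with a median of 0.17. The genes that tissue digestion is known to induce followed the same direction: of 27, 10 were past the fold lower and 0 higher, with a median of -0.70, and Klf4, a transcription factor on that list, stood at 1937, 1583, 734 and 956 CPM. The part of tissue digestion in the other differences was not tested. Of 19 progenitor-list genes, 4 were past the fold lower and 1 higher, Igfbp6, whose ratio was 1.03 (0.89 to 1.18).

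In LysM-DKO members the same comparison had 144 of 1905 genes past the fold (7.56%), 52 higher (2.73%) and 92 lower (4.83%). Collagen genes were not among them, at 0 of 14 in either direction and a median of -0.04 against 0.11 over all genes. Whether the diets' collagen difference depends on genotype was not tested, since each value rests on 1 library. C7, a component of the terminal complement complex, led the higher genes, at 77.6, 41.1, 423 and 417 CPM, a ratio of 3.34 (3.0 to 3.70). Both western libraries were above both normal-diet libraries for C7, and outside the members it stood at 2.60, 2.54, 22.6 and 14.8 CPM. Ltbp2, an elastic fibre gene, had the same pattern, at 43.8, 59.4, 197 and 219 CPM (1.88, 1.55 to 2.22). F3, which encodes tissue factor, the starter of coagulation, stood at 337, 209, 519 and 620 CPM (1.57, 1.38 to 1.75). Cst3, the protease inhibitor cystatin C, stood at 4845, 4504, 5538 and 9358 CPM and was past the fold only in this contrast, at 1.06 (1.01 to 1.10).

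Chemokine genes were on the lower side in this contrast: of 13 at 100 CPM or more, 8 were past the fold lower and 0 higher, with a median of -1.25. Ccl2 stood at 556, 792, 183 and 283 CPM and Cxcl1 gave -1.59 (-1.71 to -1.49). Genes that tissue digestion is known to induce also lay lower in this contrast. Of 27, 3 were past the fold lower and 0 higher, with a median of -0.44 against 0.11 over all genes. The part of digestion in the chemokine difference was not tested. Of 15 complement and acute-phase genes, 6 were lower and 2 higher, among them C7, with a median of -0.91, which was -0.14 without leukocyte-marked barcodes and the deepest 5% of each library. Ptx3, a pentraxin of local inflammation, stood at 279, 432, 61.4 and 38.5 CPM, a ratio of -3.47 (-4.00 to -3.01). Progenitor-list genes were on the lower side, with 7 of 20 past the fold lower, 0 higher and a median of -0.63. Procr stood at 166, 387, 47.3 and 47.9 CPM (-3.00, -3.48 to -2.59), Ackr3 at 279, 241, 132 and 60.4 CPM (-1.99) and Cd55 at 170, 255, 99.2 and 72.9 CPM (-1.80). For Procr, the top 5% of members held 92.0, 80.9, 95 and 84.8% of the UMIs, so its level is that of a minority of members. LysM-DKO on normal diet was the highest library for Procr and Cd55. Mfap5 stood at 834, 1143, 1020 and 1098 CPM and Cd34 at 390, 416, 373 and 480 CPM, so both stayed within 2 fold over all 4 libraries.

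**Figure D5:**
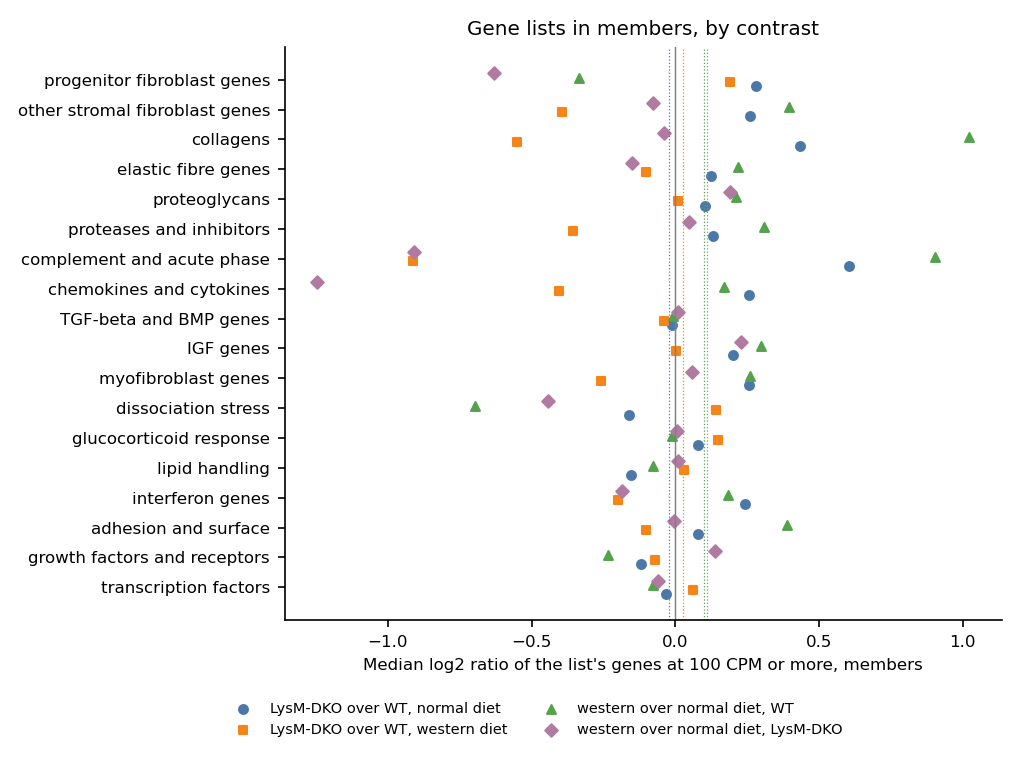
Median log2 ratio in members (x axis) of the genes at 100 CPM or more in each gene list (y axis), with 1 symbol for each of the 4 contrasts. Dotted lines mark the medians over all genes (-0.02, 0.03, 0.10 and 0.11). Complement and acute-phase genes lie at 0.60 and -0.91 in the genotype contrasts on normal and western diet, and collagens at 1.02 in WT and -0.04 in LysM-DKO for western over normal diet.

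The epsin genes, which the series' title concerns, were low in members. Epn1 stood at 31.8, 36.6, 39.0 and 39.6 CPM and Epn2 at 59.7, 56.4, 100 and 69.7 CPM. For Epn1 the intervals of all 4 contrasts held 0. Epn2 gave -0.08 (-0.49 to 0.33) between genotypes on normal diet and, between the western libraries, -0.52 (-1.01 to -0.05). Of the endocytosis genes at 100 CPM or more, 0 of 7, 0 of 9, 0 of 9 and 0 of 7 were past the fold in the 4 contrasts. Over all genes the shares were 1.95, 3.53, 12.1 and 7.56%, so with so few genes these counts say little about the list.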

How the data were processed

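Aortas were digested to single cells and captured with the 10x Chromium 3′ v3.1 chemistry, per the labels' protocols. The authors deposited UMI counts per gene (32285 features) and barcode, made with Cell Ranger 6.0.1 for the normal-diet and 6.1.2 for the western libraries, per the file headers. The submitters' processing notes name Cell Ranger 6.1.2, Seurat 4.1.0 and mm10. The libraries hold 13831, 15826, 29724 and 11414 barcodes with 51281643, 50662515, 67450979 and 62510744 UMIs. Members held 1507966, 2020130, 846359 and 960751 UMIs, so that a count of 0 allows up to 1.99, 1.49, 3.54 and 3.12 CPM (3 UMIs), for counting error only.

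Members were gated on raw UMIs, with no clustering and no doublet caller beyond the gate. Members and lists were chosen with earlier results of these data known. Subsets were tested with edgeR 4.0.16 (R 4.3.3: TMM, filterByExpr, quasi-likelihood, library as block because both sums of a library come from the same capture), with Benjamini-Hochberg adjustment over all genes and DESeq2 1.42.0 as an alternative. On simulated counts for this comparison over 9377 genes, 86.7% of 2-fold and 38.8% of 1.5-fold changes were recovered, with 2.38% of calls false. The simulation drew every library from the same pooled composition, with a single dispersion for all genes. It holds no differences between libraries, so these shares need not carry over to the real ones. Group contrasts compare 1 library with 1 and have no test.

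Named genes were, for the subsets, the 12 largest log2 ratios per direction among called genes with 1 sign in all libraries and a mean of 50 CPM. For the groups they were the 8 per direction ranked by the interval bound nearest 0, among genes at 100 CPM and at or above the level in all other kept barcodes. Genes of the rule, mitochondrial, ribosomal, hemoglobin, immunoglobulin and sex-linked genes and markers of other cell types were left out. List members were added by count, with examples by level or ratio. Alternatives changed the UMI, mitochondrial and Pi16 limits, scaling, weighting, low-count filters, the block and the libraries. Those that left out single barcodes per gene, mesothelial-marked members or Spp1 barcodes, or tested exactly 1 UMI, were chosen after seeing the data. Some genes that the rule would name are not reported here.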

Additional observations from a re-analysis of the deposited data

Results flagged for a closer look

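In members, 8 named genes had a LysM-DKO over WT log2 ratio of opposite sign on the 2 diets, each 2 fold or more apart, with 1 library per group. The difference between the diets was not tested. Saa3 gave 8.12 on normal and -2.93 on western diet, and Lbp gave 2.69 and -2.27. Serpina3n gave 1.44 and -2.87, and Plac8 gave 2.49 and -2.43. Col3a1 gave 1.10 and -1.55, and Timp1 gave 1.10 and -1.87. The chemokine genes Cxcl14 and Cxcl13 gave 2.70 and -7.71, and 3.63 and -4.86. For Cxcl14 the western value compares 92 UMIs with 0 and depends on the 0.5 UMI added, so it is no bound. On normal diet Cxcl14 and Cxcl13 reached 66.3 and 36.6 CPM in the higher library, under the 100 CPM that the report's counts require. Saa3 and Cxcl13 rest on a few barcodes in each library, as the counts per barcode show.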

How the results depend on the processing

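The 236 genes called between members and other fibroblasts were 237 with RLE size factors and 212 at 2000 UMIs or more. The count was 144 with DESeq2, 640 with no filter on low counts and 5 with no replicate block. It was 417 when the Pi16 and Dpp4 condition was applied after thinning, and 163 without leukocyte-marked barcodes and the deepest 5%. It was 370 without Spp1 barcodes and 33 for exactly 1 UMI against 0. Leaving out 1 library gave 70 to 317. With no block, 22 of the 24 named genes missed the threshold, and the cause was not tested. The thinned member shares were 26.2, 26.7, 21.2 and 23.5%.

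The 34 genes past the fold between genotypes on normal diet were 19 with equal weight for each member, 66 at 50 CPM and 19 at 200 CPM. On western diet the count of 67 was 116 at 50 CPM. For western over normal diet the counts were 417 at 50 CPM and 137 at 200 CPM in WT, and 281 and 80 in LysM-DKO. Of 656 list medians recomputed, 7 that lay over 0.1 from 0 changed sign, 4 others moved by over 0.25 on the log2 scale and 645 did neither. Lipid handling on normal diet went to 0.0162 without leukocyte-marked and deep barcodes and to 0.0396 with equal weight. With equal weight, progenitor and glucocorticoid genes on western diet went to -0.0108 and -0.00936. With at least 2 UMIs of Pi16 and Dpp4, elastic fibre genes on western diet went to 0.0150 and IGF genes in WT to -0.00203. Endocytosis genes in LysM-DKO went to 0.0102 at 5% mitochondrial UMIs. Of 512 ratios of named genes, 448 stayed within the interval of the reported value, 63 moved out of it and 1 changed sign, Saa3 for western over normal diet in LysM-DKO, at 4.76 without leukocyte-marked and deep barcodes. Lgals3 went to 0.0198 between the subsets without Spp1 barcodes. For genes under 3 UMIs in a library, depth allows only the stated limits.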

Other observations

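Some genes were held by few members in every library. Members were ranked by how unevenly a gene's UMIs spread over them, among 3366 genes with at least 40 UMIs in each library, and this ranking was made after seeing the data. Cxcl2 led, with 78.8, 80.2, 85.5 and 94.2% of its UMIs in the top 5% of members for that gene. Ccl7, Il6 and Ccl2 were also among the first 12, as were the matrix genes Prg4, Thbs1, Cilp, Comp and Col12a1, the Wnt modulator Sfrp1 and the hyaluronan synthase gene Has1. For Ccl7 the top 5% held 65.6, 62.4, 71.7 and 78.7% of UMIs. A CPM of these genes over members is thus the level of a minority of cells in all 4 libraries.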
